A study of Mus musculus with 4 samples.

Results

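The genes described here encode the motors and tracks of the cell: kinesins, cytoplasmic dynein and dynactin, tubulins, actins, myosins, and the tropomyosins, cofilins, actinins and actin-related proteins that shape actin filaments. They were chosen by gene symbol, from every probe set that the platform annotation assigns to exactly 1 symbol of these families, with Tubb3 left out. The rule found 137 probe sets of 101 genes among 12422 probe sets, and used no measured value. The study profiled total RNA from 4 samples of mouse hippocampus, with 1 Affymetrix Murine Genome array per sample, which reads each transcript with probe sets of short oligonucleotides. The labels name the tissue and give no strain, sex, age, genotype or treatment, so all 4 samples form 1 group and no groups were compared. No label says whether the samples came from separate animals, and the spread between them may be partly technical. The samples are called 1 to 4, which are names without an order.

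Microtubules are polar tubes of alpha- and beta-tubulin that run the length of axons and dendrites. Kinesins carry vesicles and organelles mostly towards their plus ends, out along the axon, and dynein with its activator dynactin carries cargo back towards the cell body. Actin filaments fill dendritic spines and growth cones, where cofilin cuts them, tropomyosin coats them, and myosins pull on them or walk along them with cargo. Kif1a, Kif5a and Kif5c are among the kinesin genes used mainly by neurons, whereas Kif5b is used by most cells.

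The labelled tissue was checked against its markers. Among 10 listed markers of hippocampal principal cells, 9 had a mean signal in the analysed range. This holds for the mean and not for every sample: Camk2a gave 357, 629.7, 321 and 29.4 units, close to the floor in sample 4, and Prox1, which was not analysed, gave 64.1, 27.4, 109 and 16.7 units. Signals are quantile normalized array units, and a probe set was analysed when its mean exceeded the array-wide median of such means, which held for 6210 of 12422. A floor of 27.7 units was set under low signals before log2 values were taken, and a range that touches it is a lower bound. Signals of different probe sets cannot be set against each other, so members are compared between samples within 1 probe set. In the marker lists and other gene lists, each gene was read by 1 probe set, the one with the highest mean signal. Sums over marker lists are compared between samples only, and their brightest probe sets weigh most. Sample 4 stood furthest from the others over the whole array, with 127 of 6210 probe sets (2.05%) at least 2-fold below every other sample, against 0.596%, 0.258% and 0.403% in samples 1 to 3. With 4 arrays, every value below has limited precision.

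Among the members, 73 probe sets of 59 genes passed the signal filter and 64 did not. Most of the analysed ones were level between samples: 43 of 73 (58.9%) spanned less than 1.5-fold between the lowest and the highest sample, where 55.8% of all analysed probe sets did. A span of at least 2-fold was found for 16 members (21.9%), where 15.2% of all probe sets had one, and a span of at least 3-fold for 7 (9.59%), where 4.78% did. The median span was 1.36-fold for the members and 1.45-fold for all analysed probe sets. Without sample 4 the count of members that spanned at least 2-fold was 7 (9.59%), those of Actc1, Actg2, Kif1a, Kif3b, Myo5b and Myo7a and 1 of Dynll2, where 7.31% of all probe sets did. Each variance was tested against that of probe sets of like signal (limma, one-sided F test), and after Benjamini-Hochberg adjustment over 6210 probe sets 0 of 73 members passed, where 0.0% of all did. At an unadjusted p under 0.05 there were 8 members (10.96%), where 5.62% of all probe sets were called. By Dixon's ratio 1 sample stood apart for 3 members (4.11%), where it did for 6.05% of all probe sets. The smallest unadjusted p of all 6210 probe sets belonged to a member, the dynein light chain Dynll2, with unadjusted p = 0.000158 (limma, adjusted p = 0.356). In simulated data this test recovered 0% of probe sets changed 8-fold in 1 of 4 samples and 95.5% of those changed 8-fold in 2 of 4. The values of single genes below are therefore descriptions, and none is called variable.

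**Figure D1:**
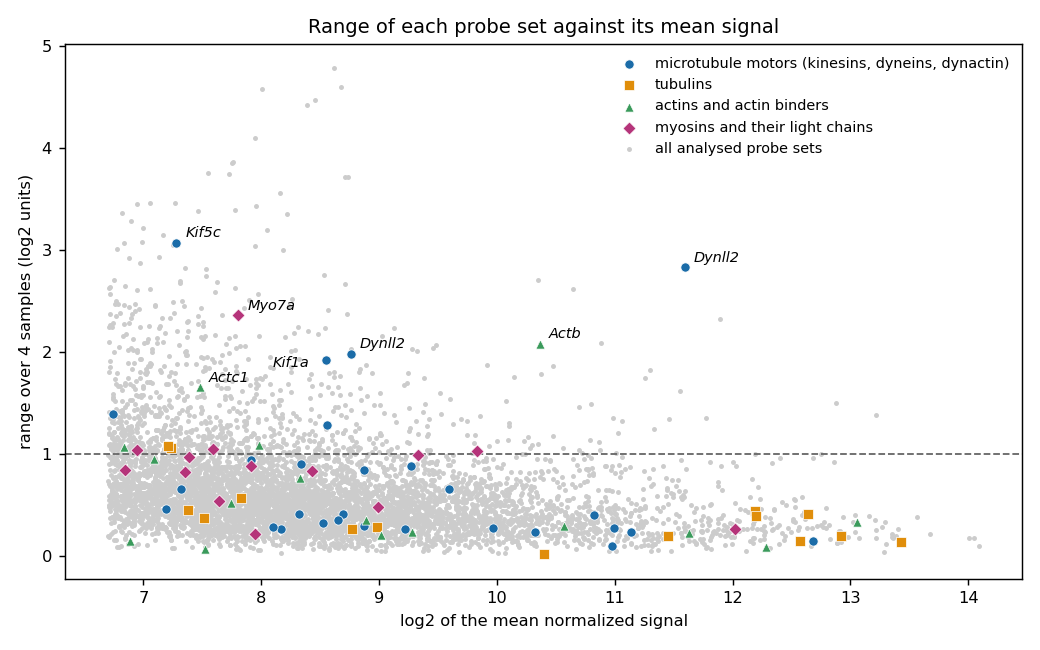
Range of each analysed probe set over the 4 samples (vertical axis, log2 units) against the log2 of its mean normalized signal (horizontal axis). Coloured symbols are the 73 analysed members by family, grey points are all 6210 analysed probe sets, and the dashed line marks a 2-fold range. Of the 15 tubulin probe sets 13 lie under 1.5-fold, where 55.8% of all analysed probe sets do. Dynll2 lies far above other probe sets of its signal.

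Of 10 analysed kinesins, 3 were lowest in sample 4, Kif1a, Kif5a and Kif5c, and 3 were highest there. Of all 6210 analysed probe sets, 1904 were lowest and 1933 highest in sample 4. Kif1a, the motor of synaptic vesicle precursors, had signals of 439, 620.1, 279 and 164 in samples 1 to 4, which average 375 ± 198 units (SD, n = 4). Its lowest signal was in sample 4 and its highest in sample 2, a span of 3.79-fold with unadjusted p = 0.00952 (limma, adjusted p = 0.636). Kif5c, a heavy chain of conventional kinesin, gave 225, 232, 141 and 23.3 units. Sample 4 lay below the floor, while the other samples were between 141 and 232 units, so that the span was at least 8.39-fold (limma, unadjusted p = 0.00872, adjusted p = 0.636). The second neuronal heavy chain, Kif5a, gave 531, 438, 324 and 217 units, a span of 2.44-fold. A further Kif5a probe set, not analysed, was lowest in sample 1, at 37.5, 96.4, 72.5 and 46.9 units. Kif5b, the heavy chain found in most cells, ran in the opposite order of samples: it gave 343, 416, 504 and 615 units and was highest in sample 4, with a span of 1.79-fold. Both probe sets of Kif1b, whose isoforms carry mitochondria and synaptic vesicle precursors, had a mean too low for analysis, and in sample 4 they were below the floor. The brighter of them gave 113, 63.1, 107 and 25.8 units.

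**Figure D2:**
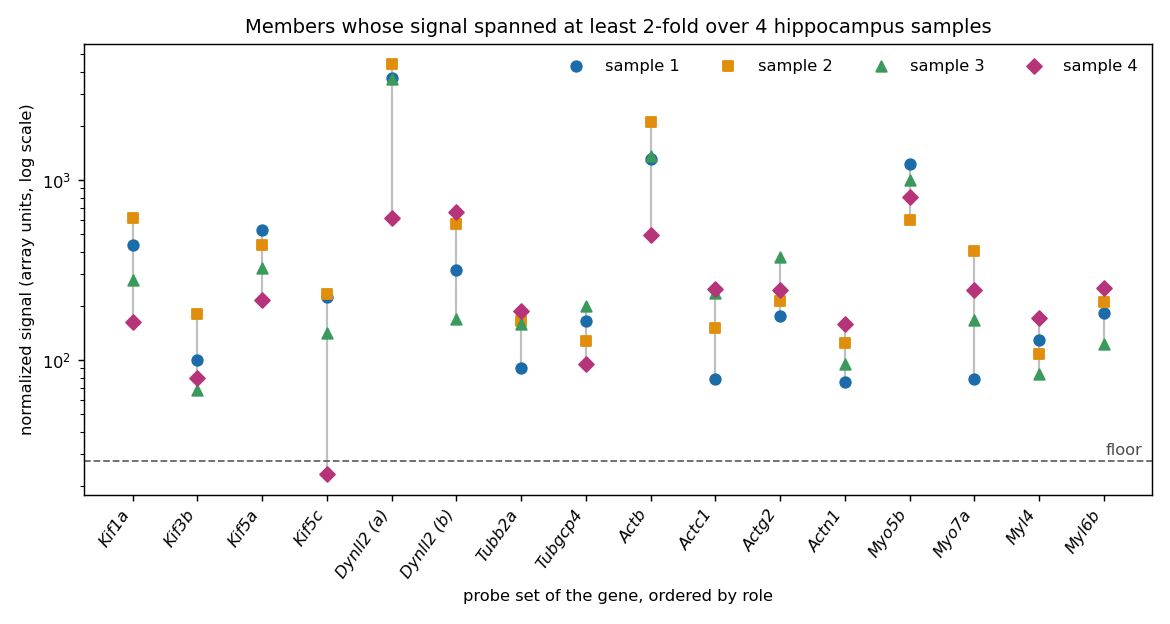
Normalized signal (array units, log axis) of the 16 analysed members that spanned at least 2-fold, with 1 symbol per sample and a grey line over the range; the letters a and b mark both probe sets of Dynll2, and the dashed line is the floor of 27.7 units. Sample 4 is lowest for Kif1a, Kif5a, Kif5c, Actb, Tubgcp4 and the first probe set of Dynll2. It is highest for Actc1, Actn1, Myl4, Myl6b, Tubb2a and the second probe set of Dynll2.

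Neuronal marker lists differed in how sample 4 stood. Of 9 analysed pan-neuronal markers, 7 were lowest in sample 4, where 1904 of all 6210 analysed probe sets were. The summed signal of the 9 was 28110.5, 24499.5, 25996.5 and 21169 units in samples 1 to 4. None of the 9 lay below the floor in any sample. Of 9 analysed markers of hippocampal principal cells, 4 were highest and 2 lowest in sample 4, where 1933 and 1904 of all 6210 probe sets were. Their sums were 10013, 11306, 8498 and 10154 units, lowest in sample 3. In bulk tissue, fewer cells of a type and less RNA per cell cannot be told apart. The part of neuronal content in the kinesin values was not tested.

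Most other kinesins spanned less than 2-fold. The kinesin-2 complex, which builds cilia and carries cargo in axons, was read by 3 analysed genes. Its motor subunit Kif3a gave 171, 124, 142 and 149 units and Kif3c gave 397, 458, 359 and 391 units, so that both spanned less than 1.5-fold. Their partner Kif3b, close to the filter, gave 99.9, 180.1, 68.8 and 80.0 units and stood out in sample 2, with a span of 2.62-fold. Kif2a, which takes microtubules apart, gave 371, 328, 412 and 363 units. Kif22, a chromosome-binding kinesin of dividing cells, gave 255, 264, 266 and 311 units, the narrowest span of the 10 analysed kinesins at 1.22-fold. Kif1c, a broadly expressed relative of Kif1a, gave 123, 168, 153 and 194 units and was highest in sample 4, unlike Kif1a. Altogether 4 of 10 analysed kinesins spanned at least 2-fold, and 4 spanned less than 1.5-fold. Of all analysed probe sets, 15.2% and 55.8% did.

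Kinesin light chains couple the heavy chains to cargo. Klc1, the neuronal light chain, was read by 3 probe sets that gave different pictures. The brightest gave 2193, 2143, 2526 and 2161 units, a mean of 2256 ± 182 (SD, n = 4), and was level except for sample 3. The other two had signals of 509, 697, 446 and 824 and of 251, 358, 237 and 444. Both were high in samples 2 and 4 and low in samples 1 and 3, with spans of 1.84-fold and 1.87-fold. Their highest signal was in sample 4, unlike that of Kif1a, Kif5a and Kif5c. These dimmer probe sets carry the suffixes _f_at and _i_at, and the brightest carries neither. The suffix _f_at marks a probe set whose probes also match related sequences. Klc1 is known to be spliced into many forms at its 3' end, and which forms each probe set reads is not given in the sources used here. Klc4 gave 380.2, 285, 292 and 324 units and was highest in sample 1.

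Dynein gave the widest contrast within a single gene. Dynll2, a light chain that dimerises and docks cargo to dynein and to myosin V, was read by 2 probe sets. The brighter one gave 3694, 4397, 3645 and 618 units: samples 1 to 3 lay close together and sample 4 was far below them, at -2.66 log2 units from the mean of the other 3, with a span of 7.12-fold. The dimmer one gave 317, 575, 169.6 and 669.8 units, so that sample 4 was the highest and sample 3 the lowest, with a span of 3.95-fold (limma, unadjusted p = 0.00545, adjusted p = 0.564). Sample 4 is thus the lowest in one reading of Dynll2 and the highest in the other, and its level there is not settled by these data. The dimmer one carries the suffix _f_at, which marks a probe set whose probes also match related sequences. The near relative Dynll1, whose probe set carries the same suffix, was level, at 6805, 6734, 6130.4 and 6558 units.

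The other analysed dynein chains spanned less than 2-fold. The heavy chain Dync1h1, which holds the motor domain, gave 1890.0, 1695, 2084 and 1578 units, with a mean of 1812 ± 222 (SD, n = 4) and a span of 1.32-fold. The intermediate chains Dync1i1 and Dync1i2, which bind dynactin, gave 1945, 1992, 2067 and 2078 units and 263, 263, 307 and 316 units. Dync1i1 had the narrowest span of the 8 analysed dynein probe sets, 1.07-fold. The roadblock light chain Dynlrb1 was low in sample 3 in both of its probe sets, which gave 787, 894, 566 and 845 units and 249.6, 252, 158 and 305 units. Over analysed probe sets, dynactin was the steadiest of the motor complexes, with a median span of 1.21-fold. All 6 of its analysed probe sets spanned less than 1.5-fold, where 55.8% of all analysed probe sets did. Its largest subunit Dctn1, which binds microtubules and dynein, gave 2261, 1870.3, 1962 and 2061 units, and Dctn3, in the shoulder of the complex, gave 1335, 1354, 1147 and 1274 units. Dctn5 and Dctn6, of the pointed end, gave 1025, 1074, 887 and 1018 units and 435, 532, 476 and 436 units. Dctn2, the dynamitin subunit, gave 644, 595, 612 and 534 units in one probe set and 453, 399, 346 and 460.1 units in the other, which disagreed on whether sample 4 was the lowest or the highest. Actr1a, the filament of dynactin, had means too low for analysis. The brighter of its probe sets gave 80.05, 52.0, 26.9 and 54.5 units, a span of at least 2.89-fold.

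Tubulins were level as well, although many of these probe sets read several near-identical genes. Of 15 analysed probe sets in this group, 13 spanned less than 1.5-fold, where 55.8% of all analysed probe sets did. The median span of the group was 1.29-fold. Tuba1a, the main alpha-tubulin of young neurons, gave 7293, 8374, 7326 and 8099.6 units and 6288, 6354, 5979 and 5728 units in its 2 probe sets, with means of 7773 ± 547 and 6087 ± 290.1 (SD, n = 4). Tuba1c gave 11134, 11606, 10552 and 10736 units. Tuba4a gave 1357, 1347, 1349 and 1341 units, a span of 1.01-fold, the narrowest of all 73 analysed members and of all 6210 analysed probe sets; scaled by the array median instead, its range was 0.17 log2 units. Tuba8 gave 499.5, 452, 521 and 549.6 units.

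Among the beta-tubulins, Tubb5 gave 5490.2, 4471, 4651 and 4188 units and 2843, 3011, 2751 and 2626 units, both lowest in sample 4. Tubb2a, in contrast, was highest in sample 4 and lowest in sample 1 in both probe sets. Signals were 5705, 6288, 5956 and 7609 in one and 90.3, 166, 158 and 188 in the other, with spans of 1.33-fold and 2.09-fold. Tubb4a, a brain beta-tubulin abundant in myelinating cells, gave 5169, 4419.5, 3841 and 5215 units and was lowest in sample 3. Of 5 analysed oligodendrocyte markers, 3 were also lowest in sample 3, where 1452 of all 6210 analysed probe sets were. The summed signal of the 5 was 7105, 9689, 6993 and 10093 units in samples 1 to 4. Sample 1 was low in that sum but close to the highest for Tubb4a, and sample 2 was high in the sum but not for Tubb4a. The part of these cells in the Tubb4a values was not tested. Tubb6 gave 204, 158, 202 and 166 units.

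Gamma-tubulin seeds new microtubules. Tubg1 gave 464, 400.0, 399.9 and 480.4 units and Tubg2, the form enriched in brain, gave 225, 193, 202 and 288 units, both highest in sample 4. The ring complex subunits Tubgcp3 and Tubgcp4 gave 137, 188, 179.8 and 159 units and 166, 128, 201 and 95.1 units. Tubgcp4 spanned 2.12-fold and was lowest in sample 4, while Tubgcp3 was lowest in sample 1.

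Of 5 analysed actin probe sets, 3 spanned at least 2-fold, where 15.2% of all analysed probe sets did. They are of the _s_at and _f_at types, which can read several transcripts. Actg1, the cytoplasmic gamma-actin, was level at 8919, 9357, 8374 and 7427 units (8519 ± 832, SD, n = 4), with its lowest signal in sample 4. Actb, the cytoplasmic beta-actin often used as a constant control, was read in 2 ways. One probe set, of the _f_at type, gave 1388, 1423, 1557 and 1707 units, a span of 1.23-fold with sample 4 the highest. The other, of the _s_at type, whose probes several transcripts share, gave 1320.2, 2096, 1362 and 496 units, a span of 4.23-fold with sample 4 the lowest (limma, unadjusted p = 0.00244, adjusted p = 0.427). The array also carries beta-actin control probe sets, which the rule leaves out. Their 3' probe set gave 5966, 8577.5, 18388 and 9367 deposited units, so that sample 3 was the highest there, unlike either member. The ratio of 3' to 5' control signal, which rises with less complete RNA or cDNA, was 1.84, 1.64, 1.51 and 2.03 in samples 1 to 4, highest in sample 4. Its part in the values of sample 4 was not tested.

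Muscle actins were also read. Actc1, the cardiac alpha-actin, gave 78.7, 151, 236 and 248 units, low in sample 1 and high in samples 3 and 4, with a span of 3.15-fold (limma, unadjusted p = 0.0417, adjusted p = 0.842). A second Actc1 probe set lay below the floor in every sample, at 4.10, 1.30, 14.0 and 5.25 units. Actg2, the enteric smooth muscle actin, gave 176, 213, 375 and 244 units and was highest in sample 3. The analysed probe sets of both genes carry the suffix _f_at and can match other actins. Acta1 and Acta2, the skeletal and vascular smooth muscle actins, had means too low for analysis and gave 99.4, 93.8, 110.3 and 75.2 units and 108, 93.3, 72.5 and 79.0 units. Of 9 measured vascular smooth muscle markers, 3 were analysed, and 2 of these are the members Actg2 and Myl9. The other, Mylk, gave 319.6, 360.3, 321 and 470.1 units, highest in sample 4. Of the 9 markers, 1 lay below the floor in every sample, Cnn1. Tagln, at 89.2, 101, 66.5 and 124 units, and Des, at 45.5, 55.9, 82.7 and 52.1 units, were not analysed but lay above it in every sample.

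Actin genes are textbook targets of serum response factor, which binds the CArG box, so the promoters of the members were searched for this element. RefSeq promoters (GRCm38.p6) were found for 50 of 59 analysed genes, among them 2 of 4 analysed actin genes, Actc1 and Actg1. Actb and Actg2 were not searched. In the others, the 250 bases before the annotated start were searched; the pattern of the element is its own reverse complement, so 1 search covers both strands. It was found in 3 of these 50 genes (6%), Actc1, Actg1 and Myl9, and in 1.62% of all 27025 genes with a promoter. A match of letters is a description and no sign of binding. The 60 bases around each box are shown because 2 of these 3 genes belong to the muscle type and 1 to the cytoplasmic type, with the box in capitals, 5' to 3' on the gene's strand. The Actc1 window lies at chr2:114052888-114052947 on the minus strand, the Actg1 window at chr11:120348551-120348610 on the minus strand, and the Myl9 window at chr2:156775278-156775337 on the plus strand. The boxes begin 47, 90 and 161 bases before the starts of Actc1, Actg1 and Myl9.
Actc1: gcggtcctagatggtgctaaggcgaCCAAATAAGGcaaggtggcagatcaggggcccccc
Actg1: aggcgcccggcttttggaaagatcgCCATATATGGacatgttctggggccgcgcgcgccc
Myl9: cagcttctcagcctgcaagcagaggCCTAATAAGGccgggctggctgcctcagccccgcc
The 3 genes did not share an order of samples: Actc1 and Myl9 were highest in sample 4, and Actg1 was lowest there.

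Proteins that organise actin filaments were mostly level. Cfl1, the cofilin of brain that severs filaments, gave 5144, 4838, 4822 and 5144 units, a span of 1.07-fold, and Cfl2, the muscle form, gave 184, 178, 185 and 187 units, a span of 1.05-fold. Actr3, a core subunit of the Arp2/3 complex that branches filaments, gave 3278, 2938, 3066 and 3428 units. Actr6, a nuclear actin-related protein of a chromatin remodelling complex, gave 90.8, 150.5, 176 and 128 units and was lowest in sample 1. The crosslinker Actn1, alpha-actinin 1, was level in 2 probe sets, at 630.0, 583, 684 and 582 units and 111, 123, 118 and 121 units. They carry the suffixes _f_at and _r_at. The remaining one, which carries neither suffix, gave 76.0, 125, 95.1 and 159 units, a span of 2.09-fold. The related Actn4, found in spines, gave 206, 264, 184 and 203 units and was highest in sample 2.

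Tropomyosins, which coat actin filaments and control access to them, spanned up to 1.69-fold. Tpm1 gave 544, 473, 507 and 547 units and Tpm3, a form abundant in neurons, gave 444, 523, 409.9 and 518 units. Tpm4 gave 261, 407, 240.1 and 375 units, high in samples 2 and 4. Tpm3 was also higher in samples 2 and 4 than in samples 1 and 3, while Tpm1 was not.

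Myosins had a median span of 1.81-fold over 10 analysed probe sets, wider than every other family except actins and myosin light chains. Myo7a, an unconventional myosin known from hair cells and retinal pigment epithelium, gave 78.6, 403, 167 and 246 units. Sample 1 lay far below the others and sample 2 was the highest, a span of 5.13-fold (limma, unadjusted p = 0.0106, adjusted p = 0.654). Myo5b, which moves recycling endosomes into spines, gave 1234, 605, 1001 and 811 units, a span of 2.04-fold with sample 1 the highest and sample 2 the lowest. Myo5a, the myosin of melanosomes and spine endoplasmic reticulum, had a mean below the filter, at 63.5, 94.3, 66.1 and 138 units. Myo10, which carries cargo to the tips of filopodia, gave 237, 121, 189.7 and 122 units, high in samples 1 and 3.

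Myo6, the myosin that walks towards the minus end of actin, was read by 3 probe sets with different orders. The signals were 320.0, 351, 255 and 454 in the first, 225, 256, 245 and 262 in the next and 288, 299.6, 212 and 162 in the last, so that sample 4 was the highest in the first 2 and the lowest in the last. The non-muscle myosin II heavy chains contract actin bundles. Myh14 gave 425, 845, 528 and 771 units, a span of 1.99-fold with samples 2 and 4 high. Myh9 gave 409.9, 526, 530.5 and 573 units in one probe set and 228, 225, 190.0 and 157 units in the other, which disagreed on sample 4. Myh10, the non-muscle heavy chain best known from neurons, had a mean far below the filter and exceeded the floor in sample 1 only, at 63.9, 10.7, 24.9 and 11.0 units.

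Myosin light chains had the lowest median of any family in sample 3 and the highest in sample 4. Myl6b, a non-muscle essential light chain, gave 184, 211, 123 and 253 units, a span of 2.07-fold. Myl4, the atrial and embryonic muscle form, gave 129.6, 108, 83.5 and 172 units, a span of 2.06-fold, and Myl9, the smooth muscle regulatory chain, gave 93.7, 111, 91.4 and 164 units. All 3 were lowest in sample 3 and highest in sample 4. The fourth, Myl12b, the widely expressed regulatory chain, gave 4348, 4316, 4339 and 3612 units: samples 1 to 3 nearly coincided and sample 4 was below them, at -0.26 log2 units from the mean of the other 3. A second probe set of Myl4 and one of Myl6b were not analysed; Myl4 there was again lowest in sample 3, at 36.8, 49.7, 21.6 and 47.9 units, and Myl6b was lowest in sample 1, at 6.45, 62.2, 47.5 and 28.2 units. Markers of other tissue pieces differed between the same samples. Of 20 measured striated muscle markers, 6 were analysed, 2 of them the members Actc1 and Myl4. Of the 4 that are no members, Mylpf, Myod1, Myog and Tnnc2, 3 were highest in sample 4, with sums of 585, 509, 532 and 609.7 units in samples 1 to 4. All 3 analysed choroid plexus markers were lowest in sample 3, with sums of 2955, 1584, 1104 and 2196 units. Of all 6210 analysed probe sets, 1452 were lowest in sample 3 and 1933 were highest in sample 4. Endothelial sums were 770.3, 559.8, 489 and 515 units over 3 analysed markers, and ependymal sums were 676, 836, 642 and 758 units over 2. The part of any of these cells in the myosin light chain values was not tested.

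The median of the members lay close to 0 in every sample. The median log2 deviation of the 73 members, each sample against the mean of the other 3, was 0.012, 0.074, -0.053 and 0.038 in samples 1 to 4, and that of all analysed probe sets lay between 0.0076 and 0.018. In sample 3, 28 members (38.4%) lay above the mean of the others, where 51.1% of all probe sets did. Members were highest in sample 3 in 8 cases (10.96%), where 22.5% of all probe sets were, and in sample 4 in 28 cases (38.4%), where 31.1% were. At least 2-fold below every other sample in sample 4 were 3 members (4.11%), Actb, Dynll2 and Kif5c, where 2.05% of all probe sets were. In sample 1 there was 1 such member (1.37%), Myo7a, where 0.596% of all probe sets were at least 2-fold below every other sample. By family, medians at least 0.2 log2 units from 0 were found for 4 families. Myosin light chains had -0.54 in sample 3 and 0.65 in sample 4, and kinesin light chains, 4 probe sets of 2 genes, had -0.35 and 0.32 there. Tropomyosins had 0.20 in sample 2 and -0.27 in sample 3, and actins had 0.29 in sample 3. With no signal filter the myosin light chain medians were -0.07 and 0.00, and that of kinesin light chains in sample 4 was 0.03. Tropomyosins had 0.07 in sample 2 with median scaling. For actins, the median in sample 3 was 0.75 without sample 2, 0.14 without sample 4 and 0.05 with a filter at the 75th percentile.

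**Figure D3:**
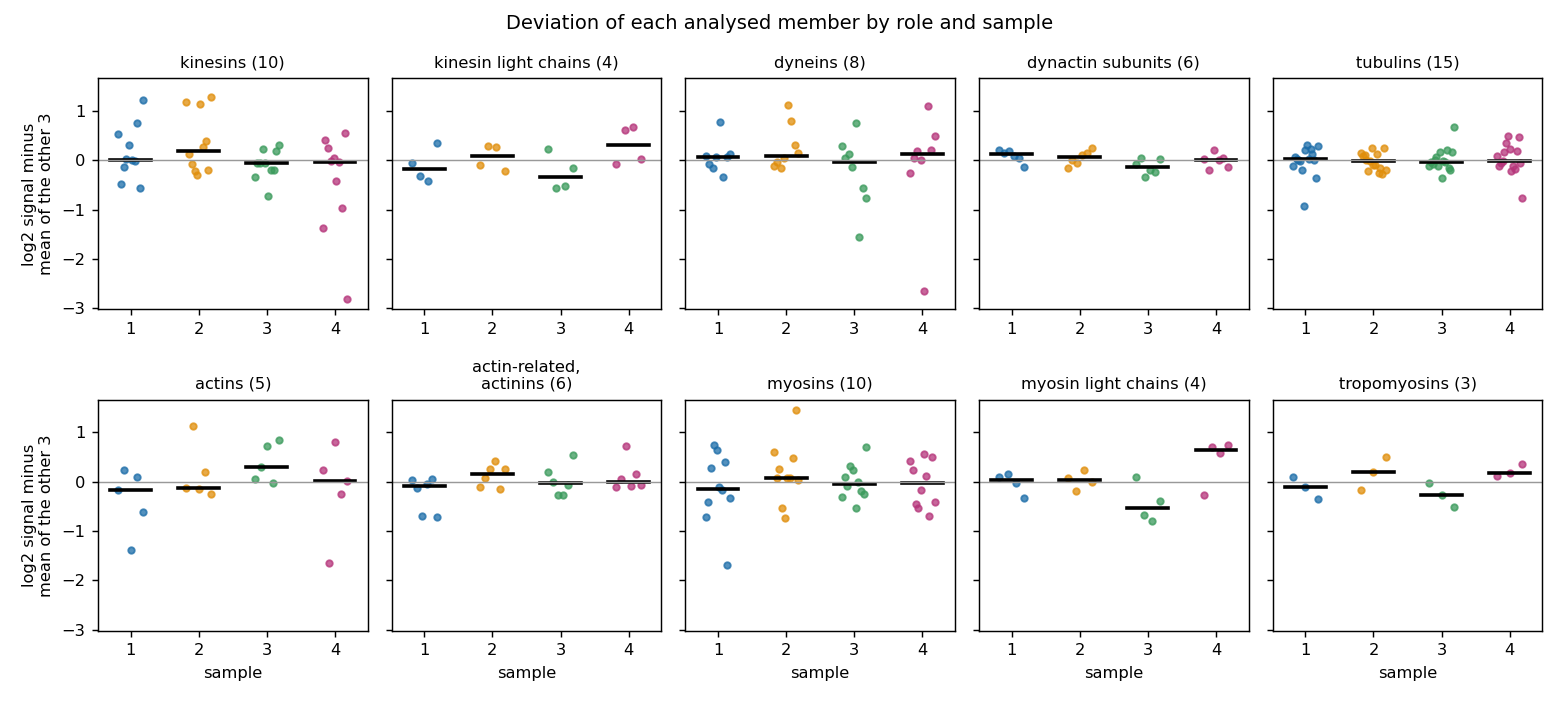
Log2 signal of each analysed member minus the mean of the other 3 samples (vertical axis), by sample (horizontal axis) and family; the number of probe sets is in brackets, points are probe sets and black bars are medians. The median of myosin light chains lies low in sample 3 and high in sample 4, though Myl12b goes the other way in both. The medians of dynactin and tubulins lie near 0, and single kinesin and dynein points lie more than 2 log2 units below 0 in sample 4.

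Probe sets of the same gene were compared for the order of their samples. Among 11 member genes with at least 2 analysed probe sets, the probe sets shared the highest sample for 2 (18.2%), Tuba1a and Tubb2a, against 27.6% of 704 such genes on the whole array. They shared the lowest sample for 3 (27.3%), Dynlrb1, Tubb2a and Tubb5, against 26.1%. For 7 genes (63.6%), Actb, Actn1, Dctn2, Dynll2, Klc1, Myh9 and Myo6, a sample that was highest in one probe set was lowest in another, against 41.8% of all such genes. Of these 7 genes, Actb and Dynll2 are the 2 in which a probe set spanned at least 3-fold.

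**Figure D4:**
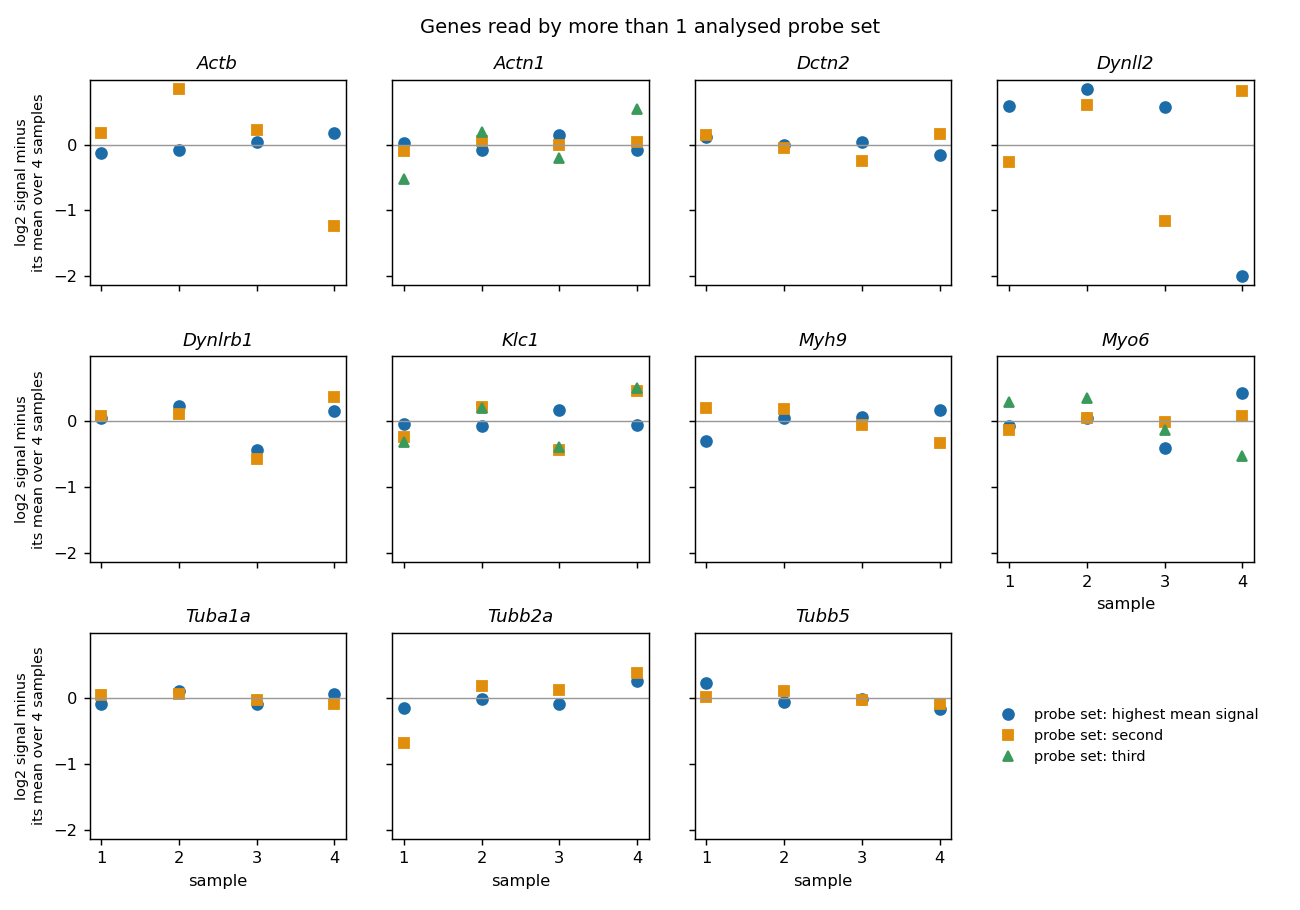
Log2 signal of each analysed probe set minus its mean over the 4 samples (vertical axis) by sample (horizontal axis), for the 11 member genes with at least 2 analysed probe sets; symbols mark the probe sets in order of mean signal. In sample 4 the probe sets of Dynll2 and of Actb lie on opposite sides of 0, while those of Tubb2a, Tubb5 and Tuba1a lie close together except for Tubb2a in sample 1.

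The 64 probe sets below the filter include every probe set of 42 genes, and 15 of the 64 lay below the floor in every sample. Sarcomeric myosin heavy chains (Myh1, Myh2, Myh3, Myh4, Myh6, Myh7 and Myh8), the light chains Myl1, Myl2, Myl3, Myl7 and Myl10, and Actn2 and Actn3 were among these genes. Myh7 was just outside the filter, at 152, 50.4, 111 and 99.0 units, as was Tubb4b, at 70.4, 136, 105 and 95.8 units, whereas Kif3b and the dimmest probe set of Actn1 were just inside. Kinesins of the mitotic spindle and of cell division, Kif4, Kif11, Kif20a, Kif23, Kif2c and Kifc1, were among them too, with Kif11 and both probe sets of Kif20a below the floor in every sample. Of 9 measured markers of dividing cells, 3 were analysed, Plk1, Mki67 and Ccna2, and 3 were below the floor in every sample, among them Top2a. The proliferation marker Mki67 gave 91.4, 106, 126 and 110 units. Kif16b, Kif9, Kifc2, Kifc3, Actr1a (the filament of dynactin), Dynlt1b, Dynlt3, Myl6, Myh11, Tpm2, the class I myosins Myo1c, Myo1d, Myo1e and Myo1f, and the pseudogene Tubb2a-ps2 were the others, beside genes named above. Cflar, which matches the symbol pattern of the cofilins but encodes a regulator of caspase-8, was below the filter at 65.3, 78.8, 94.6 and 111 units.

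Genes that work with these proteins were read from lists chosen from general knowledge. Of 27 measured genes that bind microtubules or fold tubulin, 25 were analysed, and 3 spanned at least 2-fold, Map2, Mapre1 and Spast. After adjustment 0 passed the variance test (limma, 2 at an unadjusted p under 0.05). Of all analysed probe sets, 15.2% spanned at least 2-fold and 5.62% had an unadjusted p under 0.05 (limma). Spast gave 85.9, 109, 174 and 139 units, lowest in sample 1 and highest in sample 3. The axonal protein Mapt, with a span of 1.96-fold, gave 1589, 1723, 2129 and 3118 units, highest in sample 4. The dendritic protein Map2 gave 305, 171, 187 and 63.9 units, lowest in sample 4, and the plus-end binding protein Mapre1 gave 508, 588, 628 and 1044 units, highest there. The list's median span was 1.42-fold. Of 34 measured regulators of actin, 32 were analysed, 3 spanned at least 2-fold and 0 passed after adjustment (limma, 3 at an unadjusted p under 0.05), with a median span of 1.40-fold. Cap1, which recycles actin monomers, gave 260.4, 58.3, 298 and 90.6 units, and the monomer binder Pfn1 gave 229.7, 49.9, 176 and 169 units, both lowest in sample 2.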

How the data were processed

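Per the deposited table, each of 4 hippocampus arrays has an intensity for 12422 probe sets and 66 controls. The software that made these deposited intensities is not given in the sources used here. Their trimmed mean (without the lowest and highest 2%) was 250.1 in every array, so the arrays had been scaled alike before deposit. Controls were left out, quantile normalization was run with limma (version 3.58.1, R 4.3.3), a floor was set at the 25th percentile (27.7 units), and log2 was taken. Analysis was limited to probe sets whose mean signal exceeded the median of all means. Each variance was tested against its intensity trend with limma's robust empirical Bayes fit (one-sided F test, 3 residual and 5.06 prior degrees of freedom, Benjamini-Hochberg adjustment over 6210 probe sets). Symbols came from the platform annotation, updated through RefSeq. Signals are printed before the floor, with SD over 4 samples.

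Alternatives changed the normalization, the floor, the filter, the variance trend, the fold threshold and the samples used. Values per sample are given for members that spanned at least 2-fold, the widest and narrowest of each family, and genes with several probe sets; values of the other members were added after they were seen, so that each analysed member is given except 1, which is not reported here. The members and lists were chosen with earlier results of these data known. All 4 columns were used and no sample was left out.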

Additional observations from a re-analysis of the deposited data

Results flagged for a closer look

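Dixon's ratio, the gap of the most extreme sample to its neighbour over the whole range, exceeded its critical value of 0.829 for 3 of 73 analysed members (4.11%), where 6.05% of all analysed probe sets exceeded it; chance flags about 1 in 20. For Myl12b the ratio was 0.96, with sample 4 at 3612 units and samples 1 to 3 between 4316 and 4348 units. For the brighter probe set of Dynll2 it was 0.904, with sample 4 at 618 units and the others between 3645 and 4397 units. For the brightest probe set of Klc1 it was 0.859, with sample 3 at 2526 units and the others between 2143 and 2193 units.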

How the results depend on the processing

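The count of members past the variance test was 0 under each normalization, floor, filter, variance trend and omitted sample tried, with 8 members at an unadjusted p under 0.05 as reported. The count that spanned at least 2-fold was 16 with median scaling, with deposited values and with the lower floor, of which 16, 15 and 16 were the same probe sets; it was 11 with a pseudocount of 16, 35 of 137 with no filter, 6 of 45 with a filter at the 75th percentile, and 7 to 14 when 1 sample was left out. At 1.5-fold it was 30 and at 3-fold 7. The median log2 range, 0.44, was 0.48 with median scaling, 0.41 with the pseudocount, 0.48 with no filter, 0.33 with the stricter filter, and 0.35 to 0.40 when 1 sample was left out. With median scaling the members' medians were 0.10 in sample 4 and -0.056 in sample 2, where those of all analysed probe sets were 0.11 and -0.087. The members' median in sample 2 was 0 with no filter. When 1 sample was left out, the members' medians ran from -0.025 to 0.047 in sample 1, 0.016 to 0.10 in sample 2, -0.064 to -0.016 in sample 3 and 0.046 to 0.050 in sample 4. Members above the mean of the others in sample 3 numbered 44 of 137 with no filter, 16 of 45 with the stricter filter, and 26 to 32 when 1 sample was left out. Members at least 2-fold below every other sample in sample 4 numbered 3 to 5 without another sample, 5 of them without sample 3. Genes whose probe sets share the highest sample numbered 4 with median scaling, 1 with deposited values, 5 of 33 with no filter, 1 of 6 with the stricter filter, and 2 to 6 when 1 sample was left out, 6 of them without sample 4. The filter changes these counts through the number of probe sets tested; the cause of the other changes was not tested. Of 232 family medians under settings that kept all samples, 26 moved by more than their SD over samples and 0 changed sign from a value of at least 0.2. No detection calls were used, so weak signals may be background. No paired analysis was possible because the labels give 1 group.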

Other observations

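Probe sets that the annotation assigns to several symbols of these families stand outside the members. One for Tuba1a, Tuba1b, Tuba1c and Gm5620 was level, at 10552, 10015, 9741 and 10015 units in samples 1 to 4, as was one for Myl12a and Myl12b, at 1859, 1836, 2117 and 1912 units. In that Myl12a and Myl12b probe set sample 4 was not low, unlike in the Myl12b one. One for the dynein light chains Dynlt1a and Dynlt1c gave 992, 2067, 1214 and 1756 units, high in samples 2 and 4, a span of 2.08-fold. The 3' beta-actin control spanned 3.08-fold and the middle and 5' controls 3.72-fold and 3.77-fold, in deposited units, each highest in sample 3.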
